A study of Homo sapiens with 3 samples.

Results

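Genes of one protein family were followed in transcriptomes of 293T cells, namely ZNF91, ZNF93, ZNF141, ZNF248, ZNF382, ZNF425, ZNF649 and ZNF765. They were picked by name, as KRAB zinc finger genes whose proteins have been reported at L1 or SVA retroelements, and all 8 were found among the 23284 gene names in the files. KRAB zinc finger proteins read DNA with an array of C2H2 fingers, in each of which 2 cysteines and 2 histidines hold a zinc ion. Their KRAB domain recruits TRIM28, which brings in the histone methyltransferase SETDB1 and HP1 proteins and so silences the bound element. ZNF91 is known as a repressor of SVA elements and ZNF93 as a repressor of older L1 elements of primates, and the other 6 have been reported at L1 elements.

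The cells were 293T, a human embryonic kidney line, and all of them carried dCas9-VP64, in which a Cas9 unable to cut DNA is joined to a transcriptional activator. They differed in what was expressed with it, which was a mock sgRNA, sgL1ASP #1 or sgL1ASP #3, the last 2 being guide RNAs directed to the antisense promoter (ASP) of L1. The comparison of the libraries asks whether RNA levels of these 8 genes differed when the L1 ASP was targeted. There was 1 library for each of the 3 conditions, so that no difference below has a replicate check and none was tested. dCas9-VP64 was supplied by transfection, and the libraries come from the whole culture, in which fewer cells expressing a gene and less RNA per cell cannot be told apart. The files hold FPKM (fragments per kilobase of transcript, scaled to the number of mapped reads), a level per length, and no read counts. From the spacing of the lowest FPKM, the depth that the FPKM scale implies was estimated at 10400000 reads for mock, 10300000 for sgL1ASP #1 and 8700000 for sgL1ASP #3. FPKM above 0 was listed for 16640, 16693 and 16440 genes, respectively. Where 3 values stand together below, they are FPKM of the mock, sgL1ASP #1 and sgL1ASP #3 libraries, in this order.

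The fingers are the part of these proteins that contacts the element, and the unit of the first finger of each gene is shown so that these units can be compared. Each unit is 84 bases, from the first cysteine of the first finger to the base before the next unit would start, written 5′ to 3′ on the coding strand, and the capitals mark the codons of the 2 cysteines and 2 histidines.
ZNF91: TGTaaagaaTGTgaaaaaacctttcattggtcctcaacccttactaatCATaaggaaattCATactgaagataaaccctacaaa
ZNF93: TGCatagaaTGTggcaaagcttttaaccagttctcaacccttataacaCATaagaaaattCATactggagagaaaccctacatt
ZNF141: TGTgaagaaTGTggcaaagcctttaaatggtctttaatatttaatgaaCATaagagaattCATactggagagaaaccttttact
ZNF248: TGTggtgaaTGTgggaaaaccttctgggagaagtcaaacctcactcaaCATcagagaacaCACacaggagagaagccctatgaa
ZNF382: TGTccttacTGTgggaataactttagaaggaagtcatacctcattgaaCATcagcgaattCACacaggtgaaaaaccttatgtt
ZNF425: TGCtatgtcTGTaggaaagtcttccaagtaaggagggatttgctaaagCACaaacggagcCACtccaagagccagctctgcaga
ZNF649: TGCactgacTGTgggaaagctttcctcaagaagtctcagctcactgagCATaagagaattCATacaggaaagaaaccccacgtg
ZNF765: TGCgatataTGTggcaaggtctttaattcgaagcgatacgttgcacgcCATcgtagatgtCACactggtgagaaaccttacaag
In GRCh37 (hg19), the units lie at chr19:23545064-23545147 on the minus strand for ZNF91, chr19:20044287-20044370 on the plus strand for ZNF93, chr4:366827-366910 on the plus strand for ZNF141 and chr10:38121056-38121139 on the minus strand for ZNF248. Those of the others lie at chr19:37117691-37117774 (plus) for ZNF382, chr7:148802306-148802389 (minus) for ZNF425, chr19:52394768-52394851 (minus) for ZNF649 and chr19:53911541-53911624 (plus) for ZNF765. Every unit is coding sequence in the last exon of the GENCODE transcript used, which is exon 6 in ZNF248, exon 5 in ZNF382 and ZNF649 and exon 4 in the other 5. The units of ZNF91 and ZNF93, the most alike, shared 64 of 84 bases and differed at 20. Those of ZNF93 and ZNF141 shared 62, and those of ZNF91 and ZNF141, like those of ZNF248 and ZNF382, shared 61. The unit of ZNF425 was the least alike, with 33 bases shared with ZNF93 or ZNF141 and 39 with ZNF649.

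Along the whole protein, the genes differed widely in the number of fingers that match the pattern of 2 cysteines, 12 residues and 2 histidines. ZNF91 encodes 31 such fingers in 1191 residues, ZNF425 encodes 19 in 752, and ZNF93 encodes 16 in 620. ZNF141 and ZNF649 encode 10 each, in 474 and 505 residues, ZNF382 encodes 9 in 550, ZNF765 encodes 8 in 523 and ZNF248 encodes 7 in 579. The map of the motifs shows them packed towards the C-terminus of every protein, with no motif before residue 175, at the end that carries the KRAB domain in this family. ZNF91, ZNF93 and ZNF141 formed the closest group, with 71.5% identity between ZNF91 and ZNF93 (443 of 620 residues), 66.0% between ZNF93 and ZNF141 and 65.4% between ZNF91 and ZNF141. The next pairs were ZNF93 with ZNF765 at 48.9%, ZNF91 with ZNF765 at 48.2% and ZNF248 with ZNF382 at 48.0%.

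Of the 8 genes, 6 were detected at low levels in every library, and the other 2, ZNF93 and ZNF141, were at or near 0. ZNF248 had the highest level, at FPKM 2.85 for mock, 3.24 for sgL1ASP #1 and 2.96 for sgL1ASP #3. ZNF91, the SVA repressor, was next, at FPKM 2.37 for mock, 2.12 for sgL1ASP #1 and 2.23 for sgL1ASP #3. ZNF248 was above ZNF91 in each library, and their counting intervals on the longest coding transcript overlapped in mock and in sgL1ASP #3, while in sgL1ASP #1 the interval of ZNF248 began at 2.76 and that of ZNF91 ended at 2.55. On the coding sequence alone these intervals overlapped in sgL1ASP #1 too, with ZNF248 beginning at 2.39 and ZNF91 ending at 2.67.

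ZNF765 was at FPKM 2.07 with mock, 1.92 with sgL1ASP #1 and 1.81 with sgL1ASP #3. ZNF425, which has the most fingers after ZNF91, was at 1.83, 1.79 and 1.60 in the same order of libraries. These 2 genes were highest in mock and lowest in sgL1ASP #3, with a ratio of the highest to the lowest FPKM of 1.14 for ZNF765 and 1.15 for ZNF425. ZNF382 was at FPKM 2.08 with mock, 1.59 with sgL1ASP #1 and 1.54 with sgL1ASP #3. It had the widest spread of the 6, with a ratio of 1.35, the mock library standing above the 2 guide libraries. ZNF649, the lowest of the 6, was at FPKM 1.45 with mock, 1.21 with sgL1ASP #1 and 1.25 with sgL1ASP #3. The ratio of the highest to the lowest FPKM was 1.19 for ZNF649, 1.14 for ZNF248 and 1.12 for ZNF91.

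By mean FPKM the order was ZNF248 (3.02), ZNF91 (2.24), ZNF765 (1.93), ZNF425 (1.74), ZNF382 (1.74) and ZNF649 (1.30). Each guide library alone gave the same order, and in mock ZNF382 stood before ZNF765 and ZNF425. The 95% counting intervals of genes next to each other in the order overlapped in every library on the longest coding transcript, except those of ZNF248 and ZNF91 in sgL1ASP #1. Overlap of intervals does not show that levels are alike, and the differences between genes were not tested. On that transcript the interval of ZNF649 ended below the start of those of ZNF248 and ZNF91 in all 3 libraries, whereas on the coding sequence alone it ended at 2.24, 1.91 and 2.05, above the start of that of ZNF91, at 1.87, 1.67 and 1.71. The plot of FPKM by library shows these intervals.

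**Figure D1:**
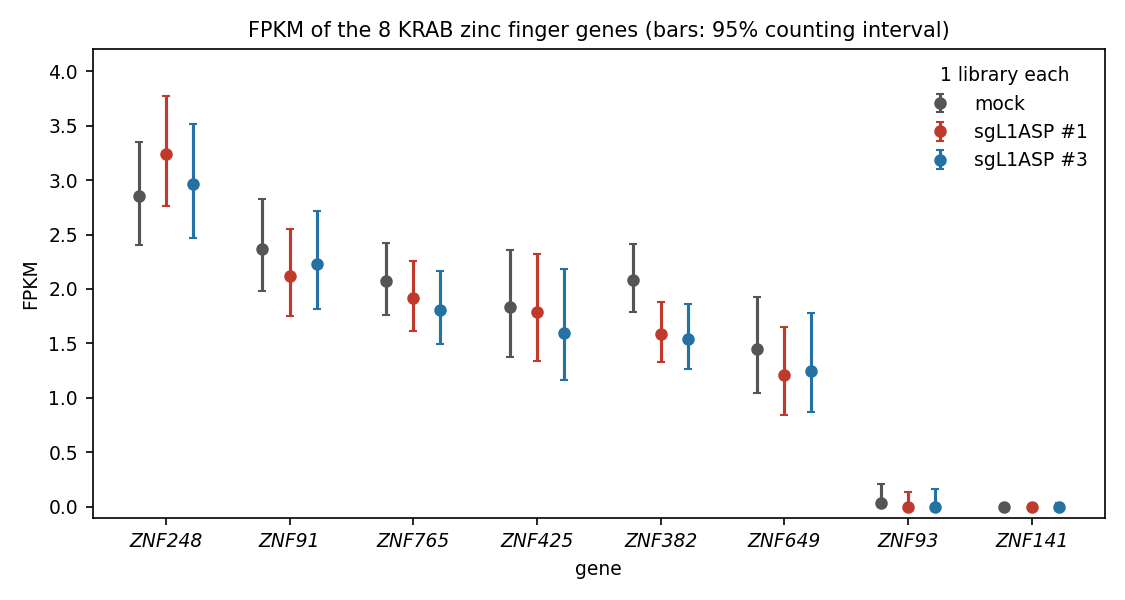
FPKM (y axis) of the 8 genes in the mock, sgL1ASP #1 and sgL1ASP #3 libraries, 1 point per library, with bars for the 95% counting interval at the estimated number of reads. The 6 detected genes lie between 1.21 and 3.24, and ZNF93 and ZNF141 lie at or near 0.

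ZNF93, the repressor of older L1 elements, was at FPKM 0.0368 in mock and was listed at 0 in sgL1ASP #1 and sgL1ASP #3. Its value in mock corresponds to 1 read on the longest coding transcript of 2763 bases, and 3 reads would be worth FPKM 0.112 with mock, 0.114 with sgL1ASP #1 and 0.135 with sgL1ASP #3. On the coding sequence alone 3 reads would be worth 0.173, 0.175 and 0.208, and on the shortest coding transcript, of 590 bases, 0.736, 0.746 and 0.885. Levels of this size rest on 3 reads or fewer, and differences between them were not detectable at this depth. ZNF141 was listed at 0 in all 3 libraries, where 3 reads on its longest coding transcript of 12601 bases would be worth FPKM 0.0232, 0.0235 and 0.0278. Over its coding sequence alone they would be worth 0.234, 0.238 and 0.282. No fold change is given for either gene. A listed 0 is not always an absent transcript in these files, since 19, 17 and 25 genes, counted for the same order of libraries, were at 0 in that library and at FPKM 1 or more in both others, none of them ZNF-named. Of these, 2, 1 and 0 had the name of a protein-coding gene in GENCODE, so that such zeros were rare among coding genes.

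Most of the 8 genes stood in the lower part of the ZNF-named genes in these cells. Among the 529 gene names made of ZNF, a number and at most 1 further letter, a set by name that includes pseudogenes and genes without a KRAB domain, 394 had a mean FPKM of at least 1 and 41 were listed at 0 in every library. The median of the mean FPKM was 2.87 over all 529, and among genes with a mean of at least 1 it was 4.60 for the ZNF-named genes and 12.3 for all 12830 genes. ZNF248 ranked 258 of 529 and was the only member above the median of that set. ZNF91 ranked 295, ZNF765 318, ZNF425 331, ZNF382 332 and ZNF649 372. ZNF93 ranked 481, and ZNF141 shared place 489 with the other genes listed at 0. The highest ZNF-named gene, ZNF768, had a mean FPKM of 139. The FPKM of the 529 genes summed to 3870, 3896 and 3869.

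**Figure D2:**
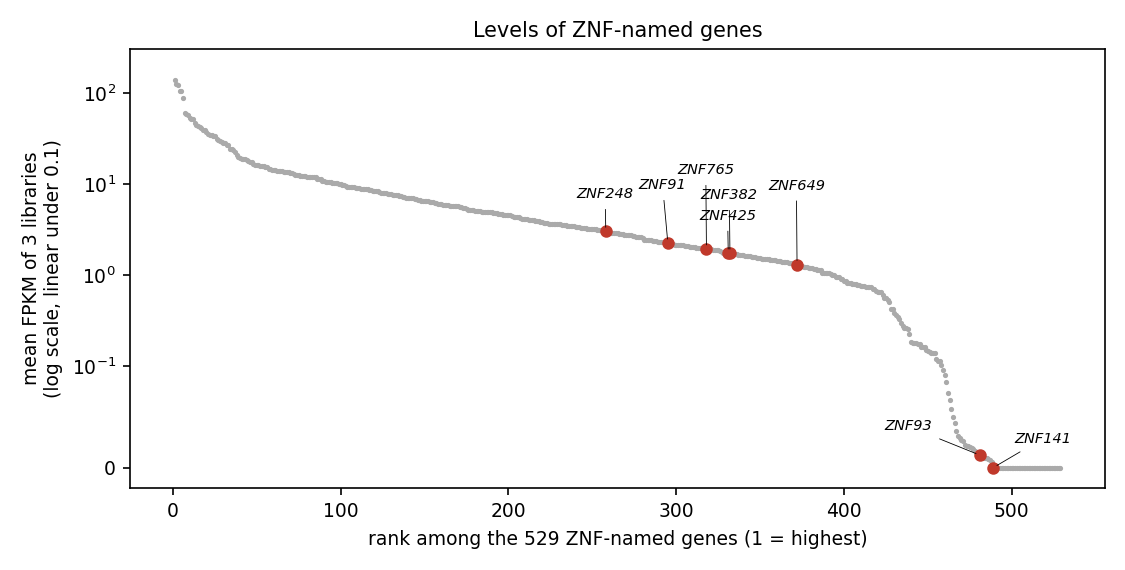
Mean FPKM of 3 libraries (y axis, log scale that turns linear under 0.1) of the 529 ZNF-named genes in order of level (x axis, rank), with the 8 genes in red. ZNF248 ranks 258, ZNF649 ranks 372, and ZNF93 and ZNF141 lie at the low end.

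None of the 6 detected genes differed by more than 1.5-fold between any 2 libraries, on a log2 scale of FPKM + 0.1 that understates differences of low genes. Over the 12830 genes with mean FPKM of at least 1, the share past 1.5-fold was 3.55% in sgL1ASP #1 against mock, 3.8% in sgL1ASP #3 against mock and 3.77% in sgL1ASP #1 against sgL1ASP #3. Among the 2721 genes with a mean FPKM of 1 to 4, the range of the 6 detected members, it was 10.6%, 11.4% and 11.1%. A count of 0 of 6 lies near these background shares.

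Against mock, the differences of the 6 detected genes were small and mostly below 0. In sgL1ASP #1 the log2 difference was -0.37 for ZNF382, -0.24 for ZNF649, -0.15 for ZNF91, -0.10 for ZNF765 and -0.03 for ZNF425. ZNF248 was higher, by 0.18. In sgL1ASP #3 the log2 difference was -0.41 for ZNF382, -0.20 for ZNF649, -0.19 for ZNF425, -0.18 for ZNF765 and -0.08 for ZNF91. ZNF248 was higher there by 0.05, a sign that turned when every library was scaled to the same FPKM sum. Thus 5 of 6 were lower in each guide library, where 49.6% and 49.4% of the 12830 genes, and 51.6% and 51.9% of the 2721 of like level, were lower. Of the 182 ZNF-named genes of like level, 83 were lower in sgL1ASP #1 and 101 in sgL1ASP #3, with medians of 0.032 and -0.057. The 2 comparisons with mock share the mock library, so that one low or high value in mock enters both.

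The median log2 difference of the 6 genes was -0.13 in sgL1ASP #1 and -0.19 in sgL1ASP #3, beside medians over all 12830 genes of 0.00085 and 0.0015. With libraries scaled to the same FPKM sum, they were -0.22 and -0.31, beside -0.092 and -0.117 over all 12830 genes. The median size of the difference without its sign was 0.165 and 0.186 for the 6 genes and 0.195 and 0.204 for the 2721 genes of like level. Only ZNF382 lay outside the middle 50% of those 2721 genes in sgL1ASP #3 against mock, which ran from -0.22 to 0.19. In sgL1ASP #1 against mock, where that range was -0.21 to 0.18, ZNF382 and ZNF649 lay below it. Between the 2 guide libraries, the log2 difference of sgL1ASP #1 to sgL1ASP #3 was 0.16 for ZNF425, 0.12 for ZNF248, 0.08 for ZNF765, 0.05 for ZNF382, -0.04 for ZNF649 and -0.07 for ZNF91. Here the mock library plays no part, and 2 of 6 were lower, beside 50.9% of the 12830 genes and 49.5% of the 2721, and the median over the 6 genes was 0.064.

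**Figure D3:**
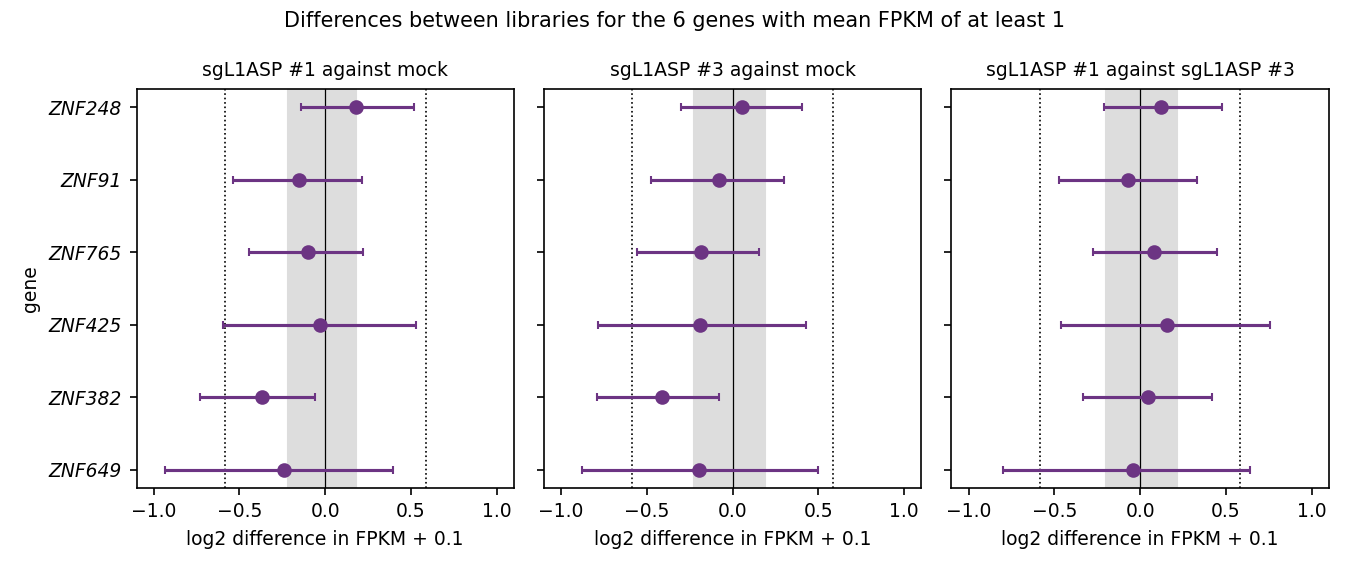
Log2 difference in FPKM + 0.1 (x axis) of the 6 genes with mean FPKM of at least 1 for the 3 pairs of libraries, with bars for the 95% counting interval of the log2 ratio of reads per depth, without the 0.1. The grey band holds the middle 50% of the 2721 genes with mean FPKM of 1 to 4, the dotted lines mark 1.5-fold, and no point lies outside them. ZNF248 is above 0 against mock in both guide libraries, in sgL1ASP #3 only on the deposited scale.

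The reads behind these values were few. On the longest coding transcript of each gene, the FPKM in mock corresponds to 177 reads for ZNF382, 160 for ZNF765, 147 for ZNF248, 129 for ZNF91, 57 for ZNF425 and 45 for ZNF649. The intervals that follow are of the log2 ratio of reads per depth, without the pseudocount, cover counting error only, and rest on an estimated depth and on the transcript length assumed. For ZNF91 the 95% interval of the log2 difference to mock ran from -0.54 to 0.22 in sgL1ASP #1 and from -0.48 to 0.30 in sgL1ASP #3. For ZNF649, with the fewest reads, it ran from -0.93 to 0.40 and from -0.88 to 0.50. Differences of 1.5-fold in the downward direction thus lie inside the interval of ZNF649, and could not be told from no difference at this depth.

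ZNF382 was the only gene whose interval left out 0 against mock, from -0.73 to -0.06 in sgL1ASP #1 and from -0.79 to -0.08 in sgL1ASP #3. With reads on the coding sequence alone, which gives 32 reads in mock in place of 177, the intervals ran from -1.22 to 0.41 and from -1.39 to 0.38. The intervals were not adjusted for the number of genes, and without a second mock library the spread between cultures is unknown. The interval included 0 for 5 of 6 genes against mock with either guide and for 6 of 6 between the guides, and for 6 of 6 in each pair with the coding length.

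By name, 9 of 394 ZNF-named genes (2.28%) were past 1.5-fold in sgL1ASP #1 against mock, 8 (2.03%) in sgL1ASP #3 against mock and 13 (3.3%) between the guides. Among the 182 of them with a mean FPKM of 1 to 4, 3 were higher and 6 lower past 1.5-fold in sgL1ASP #1 against mock. In sgL1ASP #3 against mock 2 were higher and 6 lower, and between the guides 7 were higher and 5 lower. The median log2 difference of the 394 genes was 0.018, -0.011 and 0.022 in these 3 pairs on the deposited scale, and -0.074, -0.13 and 0.048 with libraries scaled to the same FPKM sum. Of the ZNF-named genes with FPKM of at least 1 in every library and a difference of the same sign with both guides, ordered by the smaller of the 2 differences to mock, the furthest below mock were ZNF713, ZNF430 and ZNF121. ZNF713 was at FPKM 2.25 with mock, 1.14 with sgL1ASP #1 and 1.42 with sgL1ASP #3, a log2 difference of -0.92 and -0.63. ZNF430 was at 3.49, 2.52 and 2.38, and ZNF121 was at 13.2, 9.76 and 8.88. ZNF382, at -0.37 and -0.41, was closer to 0 than each of these 3 genes. For the smaller of the 2 differences, this follows from how the 3 were picked.

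In the same order, furthest above mock were ZNF624, at FPKM 1.37, 2.01 and 1.90, ZNF530, at 1.28, 1.71 and 1.87, and ZNF642, at 4.10, 5.34 and 5.46. The log2 difference of ZNF248, the one member above mock, was smaller than those of all 3, which ran from 0.37 to 0.52 and were likewise picked as the furthest. Nearness of pattern was measured as the distance between the pairs of log2 differences to mock, over 3 libraries and 393 other ZNF-named genes. ZNF91 was nearest to ZNF704, ZNF248 to ZNF432, ZNF425 to ZNF770, ZNF649 to ZNF747 and ZNF765 to ZNF182, at distances of 0.0081 to 0.026. Between 22 and 42 genes lay within 0.1 of each of these 5 members, whereas ZNF382, nearest to ZNF620 at 0.061, had 3.

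Most of the genes sit in zinc finger clusters, and their neighbours gave another view of the same regions. ZNF91 lies at chr19:23487793-23578273 on the minus strand, ZNF93 at chr19:20011722-20074273 (plus), ZNF382 at chr19:37095719-37125016 (plus), ZNF649 at chr19:52392488-52408293 (minus) and ZNF765 at chr19:53893046-53933666 (plus). ZNF141 lies at chr4:331603-378657 (plus), ZNF248 at chr10:38065454-38147034 (minus) and ZNF425 at chr7:148799876-148823416 (minus). Within 1 Mb there were 26 ZNF-named genes around ZNF649, 25 around ZNF765, 22 around ZNF382, 10 around ZNF93, 9 around ZNF425, 8 around ZNF91, 5 around ZNF141 and 3 around ZNF248. Only genes whose GENCODE name was also a name in the files were counted. A gene that has another name in GENCODE is missed, so that these counts can fall short and a nearer neighbour can be left out.

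The level of a member was not shared by its whole cluster. Of the 10 neighbours of ZNF93, 2 had a mean FPKM of at least 1, and the nearest on each side were low as well. ZNF253, 6.24 kb away, was at FPKM 0.0449 with mock, 0.0454 with sgL1ASP #1 and 0.216 with sgL1ASP #3. ZNF682, 33.6 kb away, was at 0.0322, 0.130 and 0.194. ZNF141 lay between ZNF732, which was listed at 0 in mock and sgL1ASP #3 and at FPKM 0.0489 in sgL1ASP #1, and ZNF721, which was at FPKM 7.10, 8.71 and 7.96. Of the genes counted, the nearest to ZNF91 were ZNF99, 521 kb away and listed at 0 in every library, and ZNF675. ZNF675, 130 kb away on the other side, was at FPKM 4.76, 5.30 and 4.92. All 9 neighbours counted for ZNF425 had a mean of at least 1, among them ZNF398, which starts 0.092 kb away on the other strand and was at FPKM 13.1, 11.4 and 11.3, and ZNF786, at 4.98, 4.41 and 5.46.

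ZNF382 overlaps ZNF529 on the opposite strand, and ZNF529 was at FPKM 9.45 with mock, 10.01 with sgL1ASP #1 and 11.3 with sgL1ASP #3. ZNF461, 2.50 kb on the other side, was at 2.58, 2.65 and 2.84. Both were lowest in mock, the library in which ZNF382 was highest. Among the 18 neighbours of ZNF382 with mean FPKM of at least 1, the median log2 difference to mock was 0.098 in sgL1ASP #1, with 13 higher and 5 lower, and -0.013 in sgL1ASP #3, with 9 higher and 9 lower. ZNF649 overlaps ZNF577 on the same strand, and ZNF577 was at FPKM 1.66 with mock, 1.12 with sgL1ASP #1 and 0.279 with sgL1ASP #3, a wider range than that of ZNF649. ZNF613, on the other side, was at 1.56, 1.72 and 1.18. ZNF765 overlaps ZNF525 on the same strand, which was listed at 0 in mock and sgL1ASP #3 and at FPKM 0.0164 in sgL1ASP #1, and lies 1.57 kb from ZNF761, at 2.61, 2.53 and 2.52. The nearest to ZNF248 was ZNF25, 91.5 kb away, at 0.243, 0.328 and 0.227, and all its 3 neighbours lie on that side. FPKM was calculated in a strand-specific mode, which keeps apart genes on opposite strands such as ZNF382 and ZNF529. ZNF649, ZNF765 and ZNF248, which overlaps the pseudogene ZNF33BP1, have a same-strand overlap, as do ZNF141 with the miRNA gene MIR571 and ZNF425 with the 7SL pseudogene RN7SL521P, and how reads there were divided is not given in the sources used here.

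Over the 96 neighbours counted, of which 57 had a mean FPKM of at least 1, the median log2 difference to mock was 0.066 in sgL1ASP #1 and 0.019 in sgL1ASP #3. In sgL1ASP #1, 34 were higher and 23 lower, and in sgL1ASP #3, 30 were higher and 27 lower, on the deposited scale.

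A 75-base read cannot always be told from one of another locus, be it another zinc finger gene, a gene of another kind or a sequence outside annotated genes. Allowing 2 mismatches, the share of 75-base windows of 1 coding transcript per gene that also occur elsewhere in the genome was 13.6% for ZNF141, 12.7% for ZNF765, 9.86% for ZNF91, 9.22% for ZNF93, 6.15% for ZNF382, 2.95% for ZNF649, 0.160% for ZNF425 and 0% for ZNF248. The transcript was the longest coding one except for ZNF765, where it had 4572 bases, and not the 7588 behind its reads above. The zinc finger locus that shared most windows was ZNF721 for ZNF141 (6.39%), ZNF761 for ZNF765 (4.87%), ZNF254 for ZNF91 (3.47%), ZNF253 for ZNF93 (2.49%) and ZNF615 for ZNF649 (1.28%). Loci inside genes of other kinds shared windows too, such as EVL and UGGT1 with ZNF91 (3.19% each) and KIAA1217 with ZNF382 (0.835%). Sequence outside annotated genes shared 3.91% of the windows of ZNF91 and 5.60% of those of ZNF382. The longest exact stretch was 138 bases between ZNF141 and ZNF721 and 131 bases between ZNF765 and ZNF525. ZNF248 and ZNF425 thus had the smallest shares of such windows.

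By protein, the match with the highest BLAST bit score over all genes in the files, itself left out, was taken for each gene. That of ZNF765 was its neighbour ZNF761 (78.0% identity), that of ZNF141 was its neighbour ZNF732 (77.6%), and that of ZNF649 was its neighbour ZNF613 (56.0%). ZNF93 matched ZNF726 (71.1%), which was at FPKM 0.325, 0.494 and 0.326, and ZNF91 matched ZNF729 (70.3%), which was listed at 0 in every library. ZNF382 matched ZNF567 (59.7%), at 4.76, 5.09 and 5.73, lowest in mock where ZNF382 was highest. ZNF248 matched ZNF33B (50%), at 9.07, 9.66 and 8.92, and ZNF425 matched ZNF160 (36.3%), at 1.71, 2.04 and 1.97.

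The proteins through which KRAB zinc finger proteins act were far more abundant than the 8 genes at the RNA level. TRIM28, the scaffold bound by the KRAB domain, was at FPKM 205 with mock, 207 with sgL1ASP #1 and 212 with sgL1ASP #3. SETDB1, which methylates histone H3 at lysine 9, was at 22.9, 24.8 and 23.8, and its partner ATF7IP, the lowest of the list, at 8.78, 7.97 and 8.20. ATF7IP was above every one of the 8 genes in each library. Of the 14 genes listed for this machinery (HP1 proteins, NuRD subunits, histone deacetylases and the HUSH complex with MORC2), all had a mean FPKM of at least 1 and 0 were past 1.5-fold in any pair of libraries, near the background of 3.55%, 3.8% and 3.77%. Their log2 differences to mock ran from -0.14 to 0.13 in sgL1ASP #1 and from -0.11 to 0.05 in sgL1ASP #3. On the deposited scale 9 and 11 of them were lower than mock, beside 6362 and 6333 of all 12830 genes. With libraries scaled to the same FPKM sum 12 and 14 were lower, beside 9608 and 10127 of 12830.

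Beside the 8, another 5 zinc finger genes known at retroelements were looked up. ZNF587 was at FPKM 6.11, 5.47 and 6.06 and ZNF417 at 1.55, 1.78 and 1.73 in mock, sgL1ASP #1 and sgL1ASP #3. ZNF611 was at 0.753, 0.832 and 0.771, ZNF808 at 0.0920, 0.186 and 0.258, and ZNF534 was listed at 0 in every library. ZNF587 was thus above each of the 8 genes in every library. Neither ZNF587 nor ZNF417 was past 1.5-fold in any pair, and the other 3, with mean FPKM under 1, were not counted.

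The labelled cell line was checked against marker genes. VIM, an intermediate filament gene, was at FPKM 807, 904 and 862, KRT8 at 68.1, 66.9 and 73.2, KRT18 at 60.3, 59.3 and 60.6, NEFL at 9.17, 9.61 and 9.08 and NEFM at 5.77, 5.95 and 6.02. The kidney lineage genes LHX1 and PAX2 were low, at 1.48, 1.76 and 1.63 and at 0.522, 0.654 and 0.658. Of 5 markers of other cells, PTPRC of leukocytes was listed at 0 throughout, PECAM1, ALB and MOG were under FPKM 0.5, and COL1A1 was the most abundant, at 2.55, 1.99 and 2.46. Their summed FPKM was 3.27 with mock, 2.36 with sgL1ASP #1 and 3.08 with sgL1ASP #3. This sum was highest in mock, as were ZNF91, ZNF382, ZNF425, ZNF649 and ZNF765. It was lowest in sgL1ASP #1, as were ZNF91 and ZNF649, while ZNF382, ZNF425 and ZNF765 were lowest in sgL1ASP #3. The part of other cells in these levels was not tested.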

How the data were processed

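FPKM of 23284 genes in 3 libraries was analysed, 1 library per condition, so that no test was run and replicate spread is unknown. Per the labels and the methods, the authors prepared stranded mRNA libraries, read them as single 75-base reads mapped them to hg19 and calculated FPKM in a strand-specific mode. The submitters' processing notes name TopHat2 2.0.13, Bowtie2 2.2.3, SAMtools 0.1.19 and Cufflinks 2.2.1. The deposited FPKM values were made by the authors, and the gene annotation and the scaling between libraries are not given in the sources used here. Value columns of no sample numbered 0. FPKM was used without rescaling.

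Log2 differences used a pseudocount of 0.1. Genes with mean FPKM of at least 1 formed the background, and a difference past 1.5-fold was counted. Gene models came from GENCODE 44 in its GRCh37 version. Depth was estimated from the lowest FPKM of genes with 1 transcript of at least 1000 bases, after 200 bases were taken off the length, and 33, 51 and 42 of 955, 1001 and 954 genes formed the peak in mock, sgL1ASP #1 and sgL1ASP #3. Reads behind an FPKM follow from depth and length, with exact 95% intervals (Poisson for a level, binomial for a ratio) that cover counting error only. The low FPKM alone put the depth relative to mock at 0.987 for sgL1ASP #1 and 0.831 for sgL1ASP #3. The depth estimate, the 1.5-fold count and the ratio interval were tested on simulated data.

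The members and the gene lists were chosen with earlier results of these data known. Named genes are the 8 members, the best BLAST protein match of each by bit score, its nearest ZNF-named gene on each side within 1 Mb, the ZNF-named gene with the nearest pair of log2 differences, the 3 ZNF-named genes furthest above and below mock by the smaller of their 2 differences, and fixed lists of cofactors, other retroelement zinc finger genes and cell markers. Neighbours were limited to GENCODE names that also occur in the files. Proteins were translated from the coding sequences to count fingers and compare genes. The alternatives were other pseudocounts, scalings, thresholds, filters and transcript lengths, and 2 were added after seeing the data, the background of genes with mean FPKM of 1 to 4 and the coding length. The guide targets were not analysed here. Python 3.11.15, NumPy 2.4.6, pandas 2.3.3, SciPy 1.17.1, matplotlib 3.10.9, Biopython 1.88 and BLAST 2.17.0+ were used.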

Additional observations from a re-analysis of the deposited data

How the results depend on the processing

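No paired analysis was possible because there is only 1 library for every condition, and leaving out a library would leave a condition empty. None of the 72 alternative log2 differences of the 6 detected genes or the 12 alternative medians reached 1.5-fold, but the sum scaling described next moved all 12 differences to mock downwards, for example ZNF425 in sgL1ASP #1 from -0.03 to -0.12, ZNF91 in sgL1ASP #3 from -0.08 to -0.20, ZNF248 from 0.18 to 0.09 in sgL1ASP #1 and from 0.05 to -0.06 in sgL1ASP #3, and the medians from -0.13 to -0.22 and from -0.19 to -0.31. Over all 8 members, and not only the 6 detected, the count past 1.5-fold below mock was 0 in the main setting. It became 1 with each guide at a pseudocount of 0.01 and with libraries scaled to an FPKM sum of 1000000. In each case the gene was ZNF93, about 1 read in mock and listed at 0 with both guides, so that the pseudocount sets its value. The sum scaling moved the median log2 difference of all genes to -0.092 in sgL1ASP #1 and -0.117 in sgL1ASP #3, and 1 and 0 of the 6 detected members were then above mock. Relative to that shift, the median of the 6 members was -0.13 and -0.19, as on the deposited scale. The order by mean FPKM held at 3 of 6 places in mock alone.

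Counts over all genes past 1.5-fold (456 and 488 against mock in sgL1ASP #1 and sgL1ASP #3, 484 between guides) became 243, 256 and 286 at a pseudocount of 1, 186, 186 and 215 at 2-fold, 2167, 2226 and 2275 without a filter, and 145, 151 and 154 at a mean FPKM of at least 5. For ZNF-named genes (9, 8 and 13) they became 2, 2 and 6, then 1, 1 and 4, then 33, 34 and 42, then 0, 0 and 0, and 15 and 17 against mock with the sum scaling. That scaling also turned the split of higher and lower calls from 226 and 230 to 186 and 324 in sgL1ASP #1 and from 225 and 263 to 167 and 394 in sgL1ASP #3 for all genes, and from 3 and 6 to 3 and 12 and from 2 and 6 to 2 and 15 for ZNF-named genes. At 2-fold and at a pseudocount of 1 the all-gene split was 106 and 80 and 137 and 106 in sgL1ASP #1. The cofactor count stayed at 0 throughout.

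The transcript length sets the reads behind each level. In mock they were 11 (ZNF91), 9 (ZNF248), 53 (ZNF382), 32 (ZNF649) and 94 (ZNF765) on the shortest coding transcript, and 83 (ZNF91), 46 (ZNF248), 32 (ZNF382), 39 (ZNF425), 20 (ZNF649) and 30 (ZNF765) on the coding sequence alone. The cause of these shifts was not tested, except that fewer genes are counted under a stricter filter or threshold. Depth and single libraries limit every difference given here.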
